A study of Mus musculus with 6 samples.

Results

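Guidance receptors and their ligands were compared between lower molar tooth germ and oral tissue of mouse embryos. The members were all genes named as Eph receptors, ephrins, Slits, Robos, netrins or Unc5 receptors by their symbols, together with Dcc and Neo1. Of the 19057 genes measured by a probe with 1 gene symbol, 36 were members, and Ephb2, Robo3 and Ntn1 were not analysed here. Each of 6 arrays measured RNA pooled over several CD-1 embryos (an outbred stock) at embryonic day 13.5, and every one of 3 litters supplied a library of each tissue. No allele, transgene or treatment is named for either group. The tooth germ libraries were of whole germs, so bud epithelium and dental mesenchyme were measured together, and the oral tissue was mandibular tissue without tooth or bone. In such mixed tissue, fewer cells of a type and less RNA per cell cannot be told apart.

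Eph receptors are receptor tyrosine kinases bound by ephrins on a neighbouring cell; A-class ephrins are tethered by a lipid anchor and B-class ephrins span the membrane, and both sides can signal. Slits are secreted ligands of Robo receptors, and netrins are laminin-related secreted proteins bound by Dcc, neogenin and the Unc5 receptors. All 3 systems were described first in axon guidance and also act in cell sorting at tissue boundaries, in epithelia and in blood vessels; the nerve supply of the developing molar arrives at the bud margin while the germ itself stays free of axons for a time.

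The labels of the libraries contradict each other. Titles and descriptions name one set of 3 libraries tooth germ, while source names and tissue fields give that name to the other set. Groups are named here by title, so all directions given here would invert were the other fields correct. The dental mesenchyme homeobox gene Msx1 gave 10.78, 11.41 and 11.09 under the title oral tissue and 12.67, 12.66 and 12.36 under the title tooth germ, on the deposited log2 scale. Shh, the hedgehog ligand of dental epithelium, read 7.30, 7.01 and 7.04 against 7.62, 7.90 and 8.18. Myod1, a muscle regulator, read 9.13, 8.71 and 9.06 against 7.46, 7.52 and 7.50, and the muscle actin Acta1 read 13.04, 12.27 and 12.90 against 11.13, 10.54 and 10.71. The tooth genes were thus higher and the muscle genes lower in every library titled tooth germ, with no overlap. The median signal of all probes was 7.01, and precision is limited by there being 6 arrays.

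The guidance genes differed modestly between the tissues. Epha7, Unc5b, Ntn5, Epha2, Efna1 and Ephb6 were higher in titled tooth germ, by log2 differences between 0.21 and 0.53, and no member was lower in the main test (limma, adjusted p under 0.05). These 6 were 16.7% of the 36 members, where 5.81% of all genes were called, 2.39% higher and 3.42% lower. Members were measured by brighter probes than most genes, with 31 of 36 at or above the median signal, and 8.85% of all genes in that range were called. All 6 called members lay in that range. With litter as a block, the same 6 rose and Unc5c, Robo4 and Ephb4 fell, 9 of 36, while 8.88% of all genes were called, 3.86% higher and 5.02% lower. The number of genes called in all was 1107 in the main test and 1693 with the block.

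The differences of the members ran both ways and were small. Their median log2 difference was 0.018, beside 0.0026 for all genes, and their median size irrespective of sign was 0.14, beside 0.046. The values for all genes in this paragraph were not matched for signal. Mean signals below the median of all values were found in 6907 of the 19057 genes but in only 5 of the 36 members. In 17 members (47.2%) the 3 libraries of each group did not overlap, 10 higher and 7 lower in titled tooth germ, where 23.1% of all genes showed no overlap, 11.9% higher and 11.2% lower. In 21 members the sign was shared by all 3 litters, 12 upward and 9 downward, where this held for 41.3% of all genes, 21.6% upward and 19.8% downward. An unadjusted p under 0.05 was reached by 15 members, 9 of which did not pass after adjustment over all genes; 3262 of all 19057 genes (17.1%) reached it.

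**Figure D1:**
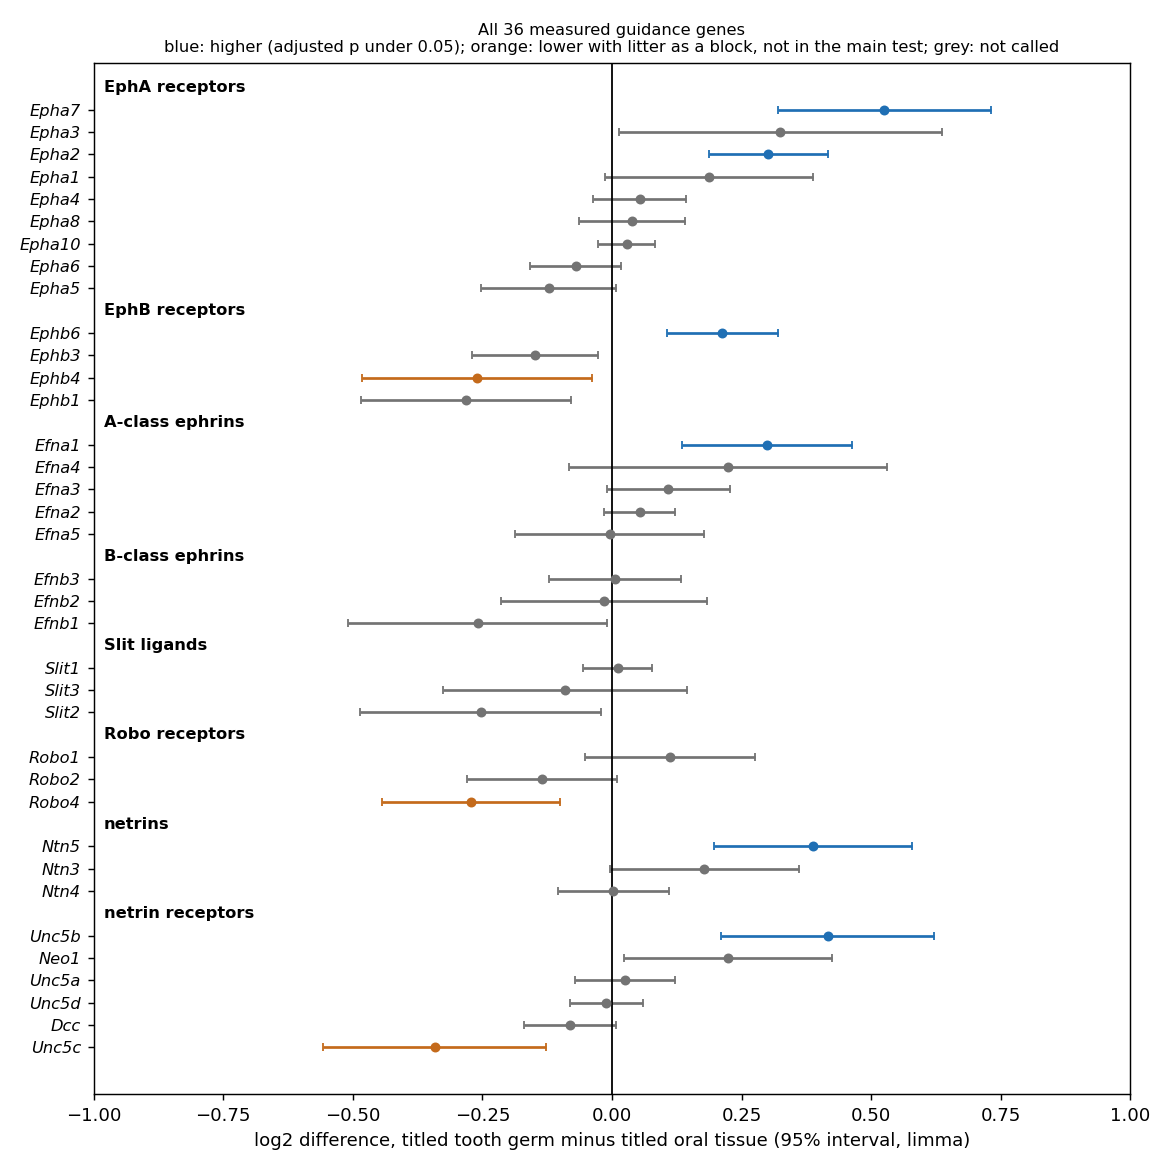
Log2 differences (titled tooth germ minus titled oral tissue) of all 36 measured guidance genes on the horizontal axis, grouped by role, with points for the estimate and bars for limma's 95% interval over 3 libraries per group. The 6 blue genes passed the main test and all lie above 0, Epha7 highest at 0.53; the 3 orange genes lie below 0, Unc5c lowest at -0.34, and passed with litter as a block.

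The members that rose were examined for shared sequence upstream of their start sites. They were grouped only because each was called higher in the same comparison. RefSeq promoter windows of the GRCm38.p6 build were found for 32 of the 36 members, among them all 6 that rose. The 250 bases before the start are shown for the receptor with the largest rise, for the receptor Epha2 and its ligand gene Efna1, and for Ntn5, whose window was poor in CpG. Sequences run 5′ to 3′ on the gene's strand. Capitals mark the GC box GGGCGG, the AP-2 palindrome GCCNNNGGC and the E-box CAGCTG, searched on both strands. Epha7 lies at chr4:28812881-28813130 (plus strand), Epha2 at chr4:141300971-141301220 (plus), Efna1 at chr3:89280952-89281201 (minus) and Ntn5 at chr7:45683772-45684021 (plus).
Epha7: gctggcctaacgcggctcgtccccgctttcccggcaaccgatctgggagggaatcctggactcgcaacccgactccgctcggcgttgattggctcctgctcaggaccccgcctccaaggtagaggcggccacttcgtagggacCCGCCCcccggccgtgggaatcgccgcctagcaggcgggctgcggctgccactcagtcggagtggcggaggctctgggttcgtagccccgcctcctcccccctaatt
Epha2: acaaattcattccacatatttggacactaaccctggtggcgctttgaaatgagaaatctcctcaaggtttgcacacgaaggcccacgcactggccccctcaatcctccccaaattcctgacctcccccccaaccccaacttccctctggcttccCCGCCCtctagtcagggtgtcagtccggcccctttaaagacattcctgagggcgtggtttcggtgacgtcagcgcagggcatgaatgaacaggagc
Efna1: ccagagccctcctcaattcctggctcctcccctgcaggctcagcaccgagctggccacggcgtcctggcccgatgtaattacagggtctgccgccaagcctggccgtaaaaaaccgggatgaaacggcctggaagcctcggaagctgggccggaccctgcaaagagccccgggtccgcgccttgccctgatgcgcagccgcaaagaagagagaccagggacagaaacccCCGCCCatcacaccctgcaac
Ntn5: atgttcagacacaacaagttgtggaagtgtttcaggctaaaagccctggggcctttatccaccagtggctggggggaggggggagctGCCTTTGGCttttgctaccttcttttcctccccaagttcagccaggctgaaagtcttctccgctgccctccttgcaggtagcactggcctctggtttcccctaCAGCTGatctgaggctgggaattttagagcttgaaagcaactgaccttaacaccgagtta
The capitals show a single GC box in the windows of Epha7 (bases 107 to 102 before the start), Epha2 (bases 96 to 91) and Efna1 (bases 21 to 16), each on the opposite strand. Ntn5 held none, and had instead an AP-2 palindrome at bases 163 to 155 and an E-box at bases 60 to 55 before the start. The Epha7 window held 25 CpG dinucleotides at 69.2% G and C, and the Ntn5 window held 2 at 52.8%.

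A GC box stood in the windows of 5 of the 6 members that rose and of 23 of the 32 members with a window, and 33.0% of all 27025 promoters of that length held it. Member windows were also richer in G and C, with a median of 65.2% against 52.0% over all promoters. The AP-2 palindrome was present in Ephb6 and Ntn5 among the risen genes, in 8 of 32 members and in 13.5% of all promoters (in Ephb6 beside a GC box, with no shared base). The ETS core CCGGAAG matched only Ephb6 among the 6, and 1 of 32 members in all, where 7.07% of promoters held it. The TCF/LEF sequence ATCAAAG (3.26% of promoters) matched no member, and the homeobox core TAATTG (7.33%) matched 1 member, which was not among the 6. The E-box CAGCTG matched 5 of 32 members and 12.7% of promoters. These matches describe letters in a short window and say nothing about binding.

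Of 9 EphA receptors, Epha7 and Epha2 rose and 7 were not called. Epha7, a receptor of repulsive sorting that is also made without its kinase domain, had signals of 8.57, 8.21 and 8.40 in oral tissue by title, and of 8.97, 8.90 and 8.88 in tooth germ (given in this order for each gene below). The groups did not overlap, and the rise was seen within each litter, at log2 differences of 0.40, 0.69 and 0.48. The estimated difference was 0.53 (SE 0.094, adjusted p = 0.00538), or 1.44-fold, from 8.39 ± 0.18 to 8.92 ± 0.049 (SD, n = 3). Epha2, a receptor of epithelial cells, read 7.18, 7.25 and 7.27 against 7.51, 7.58 and 7.52. Its libraries lay close together within each tissue and well apart between them, 0.30 apart on the log2 scale (SE 0.053, adjusted p = 0.00459), or 1.23-fold. Epha2 lay near the low end of the signal range, where the deposited scale may understate a fold.

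Epha3, a receptor of mesenchymal cells, read 10.67, 10.10 and 10.65 against 10.66, 10.97 and 10.76. The difference of 0.33 (SE 0.14) did not pass (adjusted p = 0.266). Oral tissue library 2 was the low value, and the difference was 0.87 in litter 2, 0.11 in litter 3 and near 0 in litter 1. Epha1, an epithelial receptor, read 8.11, 8.11 and 8.12 against 8.10, 8.34 and 8.47 (log2 difference 0.19, 95% interval -0.01 to 0.39), so that tooth germ library 1 lay at the oral level. The other 5 EphA receptors, Epha4, Epha5, Epha6, Epha8 and Epha10, differed by between -0.12 and 0.053, and Epha6 and Epha10 had mean signals below the median of all values.

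Among the 5 A-class ephrins, the ligands of EphA receptors, Efna1 rose and 4 were not called. Efna1, the best known ligand of Epha2, read 8.59, 8.74 and 8.68 against 8.95, 8.99 and 8.97. The groups did not overlap, and the differences within the litters were 0.36, 0.24 and 0.29, for an estimate of 0.30 (SE 0.075, adjusted p = 0.037) or 1.23-fold. Efna1, Efna3 and Efna4 are consecutive coding genes on chromosome 3. Efna4 read 9.20, 9.60 and 9.63 against 9.49, 9.62 and 9.98, with overlapping groups and a log2 difference of 0.22 (95% interval -0.08 to 0.53), and Efna3 differed by 0.11 (-0.01 to 0.23). Efna5 carried a bright probe and read 11.80, 11.82 and 11.70 against 11.81, 11.62 and 11.87. Its mean was 11.77 in both tissues, and the 95% interval of the difference was -0.19 to 0.18. Efna2, below the median of all values, differed by 0.053.

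**Figure D2:**
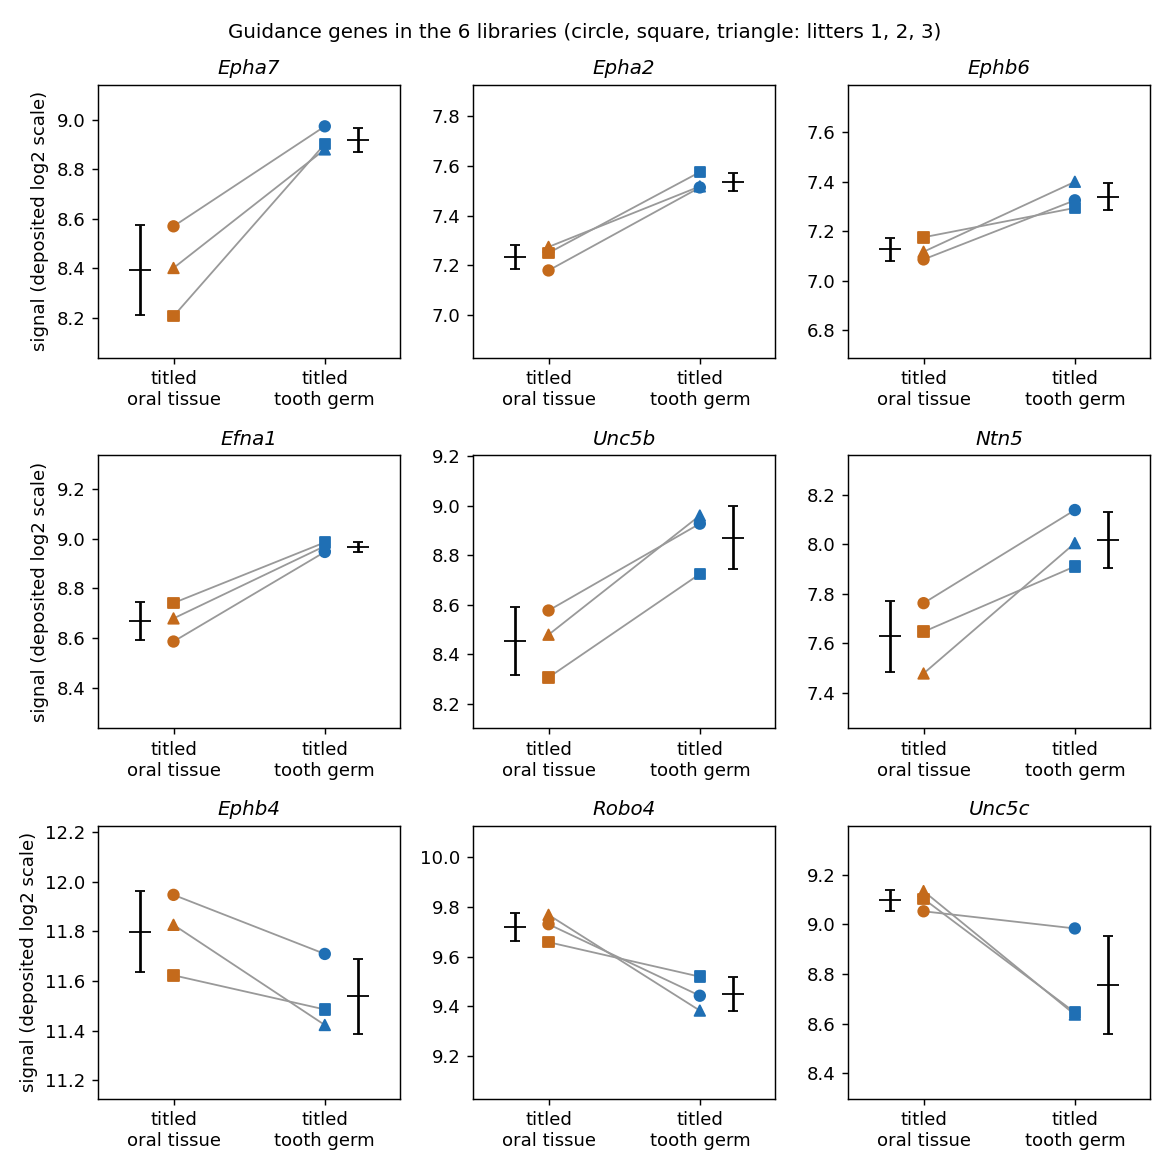
Signal on the deposited log2 scale (vertical axis, all panels spanning the same range) in the 6 libraries for the 9 guidance genes called in the main test or with litter as a block; lines join the libraries of a litter, and bars beside the points give mean ± SD (n = 3). Every line rises in the 6 upper panels and falls in the 3 lower ones, and Unc5c falls least in litter 1, by 0.069.

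The EphB receptors went both ways. Ephb6, whose kinase domain is inactive, read 7.09, 7.18 and 7.12 against 7.32, 7.29 and 7.40 and rose by 0.21 (SE 0.049, adjusted p = 0.0237), or 1.16-fold, at a low signal. The other 3 of the 4 measured had estimates below 0 and were not called in the main test. Ephb4, a receptor best known from venous endothelium, read 11.95, 11.62 and 11.83 against 11.71, 11.49 and 11.42. The groups overlapped, but each tooth germ library lay below its own litter's oral library, by 0.24, 0.14 and 0.40. The log2 difference of -0.26 did not pass (adjusted p = 0.199); blocking on litter gave an adjusted p = 0.0446.

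Ephb1, a receptor of axons and mesenchyme, read 8.87, 8.81 and 8.55 against 8.45, 8.41 and 8.53. The groups did not overlap, with a log2 difference of -0.28 (SE 0.092, adjusted p = 0.118), and in litter 3 the difference was -0.017. Ephb1 passed in 2 of 18 alternative settings, without oral tissue library 3 (adjusted p = 0.0323) and without both libraries of litter 3 (adjusted p = 0.0337). Ephb3, an epithelial receptor, read 7.63, 7.64 and 7.57 against 7.47, 7.46 and 7.46, also without overlap (-0.15, adjusted p = 0.179). Of the B-class ephrins none of 3 was called by limma, and 1 had an unadjusted p under 0.05. That was Efnb1, a ligand of boundary formation in the skull and palate, which read 10.24, 9.94 and 10.44 against 9.97, 9.97 and 9.91. Oral tissue library 2 lay among the tooth germ libraries. With all libraries the log2 difference was -0.26 (adjusted p = 0.269). Without oral tissue library 2 Efnb1 passed (adjusted p = 0.0415), but it was not called in the other 17 of 18 alternative settings. Efnb2, the arterial ligand of Ephb4, and Efnb3 differed by -0.015 and 0.0061, with 95% intervals of -0.21 to 0.18 and -0.12 to 0.13.

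No Slit or Robo gene was called in the main test, and 1 of 3 Slits and 1 of 3 Robos had an unadjusted p under 0.05 (limma). Slit2, a repellent ligand, read 10.45, 10.72 and 10.34 against 10.39, 10.20 and 10.17. Oral tissue library 2 was highest and the groups overlapped, with a log2 difference of -0.25 (95% interval -0.49 to -0.02, adjusted p = 0.24). Slit3 read 9.26, 9.51 and 9.19 against 9.37, 9.25 and 9.05, and its difference of -0.091 changed sign between litters. Slit1 lay below the median of all values in every group and differed by 0.011.

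Robo4, the Robo of blood vessels, read 9.73, 9.66 and 9.77 against 9.44, 9.52 and 9.38. The groups did not overlap, and the log2 difference of -0.27 (SE 0.078) had an adjusted p = 0.0728, or adjusted p = 0.0454 when blocked by litter. Oral tissue was thus 1.21-fold higher. Robo1, a receptor of neurons and mesenchyme, read 10.72, 10.70 and 10.70 against 10.75, 10.89 and 10.81. All 3 tooth germ libraries were higher, but by little (0.11, 95% interval -0.05 to 0.28). Robo2, the neighbour of Robo1 on chromosome 16, read 7.65, 7.72 and 7.78 against 7.65, 7.59 and 7.50 (-0.14, 95% interval -0.28 to 0.01).

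The netrins and their receptors held the largest rise after Epha7 and the largest fall of all members. Of 3 netrins measured, Ntn5 rose and Ntn3 and Ntn4 were not called. Ntn5, a little studied netrin, read 7.76, 7.65 and 7.48 against 8.14, 7.91 and 8.00, an increase of 0.39 on the log2 scale (SE 0.087, adjusted p = 0.0218), or 1.31-fold. Ntn3 read 10.73, 10.63 and 10.58 against 10.74, 10.80 and 10.94. Its groups did not overlap by a narrow margin, and the difference of 0.18 did not pass (adjusted p = 0.304). Ntn4, a basement membrane netrin, differed by 0.0030 (95% interval -0.10 to 0.11).

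Of 6 netrin receptors, Unc5b rose and 5 were not called in the main test. Unc5b, a repulsive netrin receptor of vessels and epithelia, read 8.58, 8.31 and 8.48 against 8.93, 8.72 and 8.96. The groups did not overlap and the rise was similar in the litters (0.35, 0.42 and 0.48), with an estimate of 0.42 (SE 0.094, adjusted p = 0.0222) or 1.33-fold. Its relative Unc5c, a receptor of axons and mesenchyme, went the other way, at 9.05, 9.10 and 9.13 against 8.98, 8.64 and 8.64. Tooth germ library 1 stood close to the oral level while the other two were lower, and the log2 difference was -0.34 (SE 0.098, adjusted p = 0.0719). Unc5c passed in 4 of 18 alternative settings, among them litter as a block (adjusted p = 0.0325) and leaving out tooth germ library 1 (adjusted p = 0.0135).

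Neo1, neogenin, a receptor of netrins and of the repulsive guidance molecules, read 10.75, 10.72 and 10.67 against 11.12, 10.90 and 10.79. All tooth germ libraries were higher, with a difference of 0.22 (SE 0.092, adjusted p = 0.227; adjusted p = 0.0927 when blocked by litter). Dcc, the attractive netrin receptor of axons, read between 7.06 and 7.19 in every library, near the median of all values, and differed by -0.080. Unc5a and Unc5d had 95% intervals of -0.07 to 0.12 and -0.08 to 0.06.

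Several members had other probes, which bear on these values without having been used in them. Over the 36 members there were 93 probes, and 27 of the 57 that were not the brightest of their gene had mean signals below the median of all values. When all probes were tested, 2 of the 57 were called, both for Epha7. These differed by 0.49 (adjusted p = 5.3e-04) and 0.42 (adjusted p = 7.9e-04), and the remaining and dimmest Epha7 probe by 0.025. Epha2, Efna1, Ephb6, Unc5b and Ntn5 had 1 probe each, so their differences rest on a single sequence. The next brightest probe of Unc5c differed by -0.27 (adjusted p = 0.144), of Ephb4 by -0.22 and of Epha3 by 0.35, in the direction of the chosen probe. That of Robo4 differed by -0.060 and that of Ephb1 by 0.066; the other 3 Robo4 probes lay below the median of all values.

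**Figure D3:**
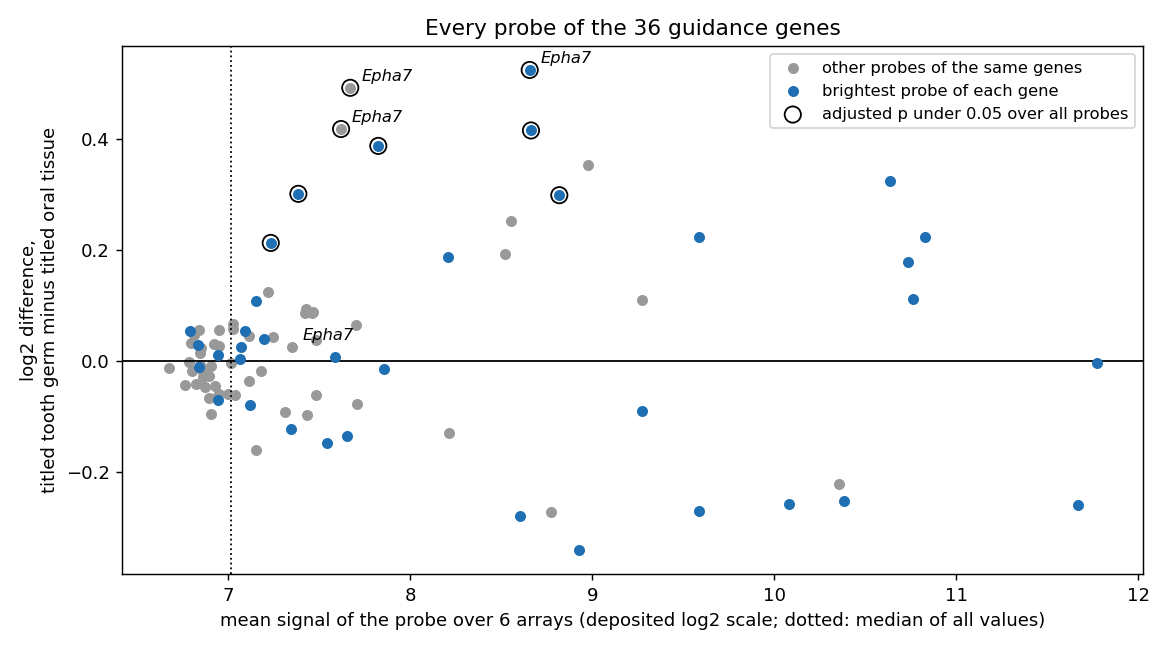
Each of the 93 probes of the 36 guidance genes, with its mean signal over 6 arrays (horizontal axis, deposited log2 scale) against its log2 difference, titled tooth germ minus titled oral tissue (vertical axis); blue points are the brightest probe of each gene, and black rings mark an adjusted p under 0.05 over all probes. Probes left of the dotted line (7.01, the median of all values) sit close to 0, and 3 of the 4 Epha7 probes are ringed, at 0.53, 0.49 and 0.42.

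Intracellular and extracellular partners of the 3 systems were counted from lists chosen by function. Of 32 Eph and ephrin partners none was called by limma and 6 had an unadjusted p under 0.05 (median log2 difference -0.0098), a share near the 17.1% of all genes. Inppl1, an inositol phosphatase that binds Eph receptors, had the smallest p (-0.39, adjusted p = 0.0531), followed by Sipa1l1, a Rap regulator downstream of Eph receptors (0.29, adjusted p = 0.109). With litter as a block both were called (adjusted p = 0.0109 and 0.0427), as was Chn2, a Rac regulator (-0.27, adjusted p = 0.0408). These were 3 of 32 partners, a share near the 8.88% of all genes called with the block. Of 19 measured Slit and Robo partners 2 fell and 17 were not called (median -0.013), where 3.42% of all genes were called lower. Srgap3, a GTPase activator that binds Robo, fell by 0.44 (SE 0.086, adjusted p = 0.00976), and Dag1, dystroglycan, which binds Slit and also anchors muscle fibres to matrix, fell by 0.47 (SE 0.10, adjusted p = 0.0176). The call of Srgap3 was lost without both libraries of litter 1 (adjusted p = 0.156) and with the mean of all its probes (-0.085, adjusted p = 0.247). The call of Dag1 was lost without oral tissue library 1 or 3 or tooth germ library 1 or 2 (adjusted p from 0.0579 to 0.0718), with the mean of its probes, and without both libraries of litter 1 (adjusted p = 0.188) or of litter 3 (adjusted p = 0.129).

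Of 23 measured netrin partners and netrin relatives 1 rose, 4 fell and 18 were not called (median -0.018). Over all genes 2.39% were called higher and 3.42% lower. Ntng1, netrin G1, a membrane-anchored relative that does not bind Dcc, read 8.88, 8.85 and 8.68 against 9.24, 9.53 and 9.20 and rose by 0.52 (SE 0.10, adjusted p = 0.00909). Ablim3, an actin-binding LIM protein, fell by 0.85 (SE 0.079, adjusted p = 5.5e-05). Trio, an exchange factor for Rac downstream of Dcc that is abundant in muscle, fell by 0.69 (SE 0.10, adjusted p = 0.00138). Rgma, a repulsive ligand of neogenin, read 9.38, 9.33 and 9.45 against 8.49, 8.77 and 8.52 and fell by 0.79 (SE 0.090, adjusted p = 2.4e-04). Its relative Rgmb also fell (adjusted p = 0.0222), by 0.26. Both ligands of this kind in the list were thus lower, while Neo1 itself was not called. The calls of Ntng1, Ablim3, Trio and Rgma held in the 18 alternatives counted. Their log2 differences ran from 0.26 to 0.60 for Ntng1 and from -0.93 to -0.33 for Ablim3. For Trio they ran from -0.78 to -0.57 and for Rgma from -0.91 to -0.73. The 18 leave out a setting with the second brightest probe of a gene, not given here for partner genes. The call of Rgmb held in 10 of 18. It was lost without oral tissue library 1 or 3 or any single tooth germ library (adjusted p from 0.0685 to 0.0797). The mean of its probes also lost it, as did leaving out both libraries of litter 1 (adjusted p = 0.174) or of litter 3 (adjusted p = 0.168).

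Markers of several cell types also differed between the tissues, where 2.39% of all genes were called higher and 3.42% lower. Of 8 surface epithelium genes 6 rose. The signal of the list, summed after undoing the log2 scale, ran from 17795 to 20420 in titled oral tissue and from 35434 to 38737 in titled tooth germ. Such sums are linear signal only if the deposited scale is plain log2. Of 9 dental mesenchyme genes 5 rose (sums from 8307 to 11420 against 16685 to 18976), and of 6 dental epithelium genes 5 rose (3089 to 3365 against 6898 to 7646). Among 14 endothelial markers 2 fell and 12 were not called, with sums from 7497 to 8280 against 6657 to 6858. Of 11 neuron and axon genes 4 fell (2868 to 4963 against 1910 to 2078), where oral tissue library 1 had the highest sum, and 1 of 5 Schwann and glial genes fell (917 to 1308 against 727 to 755). Of 10 skeletal muscle genes 9 fell (26750 to 43672 against 8092 to 10404), lowest among oral tissue in library 2. In the macrophage list 6 of 7 fell (3496 to 4015 against 2526 to 2776) and in the tendon list 4 of 7 (15486 to 16197 against 11039 to 12831). No marker is at 0 on this scale, and genes below the median of all values numbered 4 of 11 for neurons, 4 of 5 for glia and at most 1 in each other list. The part of these shifts in the differences of the guidance genes was not tested.

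The calls differed in how often they were lost when libraries were left out, which also leaves fewer degrees of freedom. The fits with libraries left out had no litter block. Epha7 passed in all 18 alternatives, with log2 differences from 0.37 to 0.61 and adjusted p-values up to 0.0465. Epha2 passed in 16, being lost without both libraries of litter 1 (adjusted p = 0.0641) or of litter 2 (0.0523). Unc5b was lost without oral tissue library 2 (0.0818) or 3 (0.0566) and tooth germ library 1 (0.0923) or 3 (0.0800). Ephb6 was lost without oral tissue library 1 (0.0874) or 3 (0.0781) and tooth germ library 1 (0.0649) or 3 (0.0790). Ntn5 was lost without oral tissue library 3 (0.0864) and tooth germ library 1 (0.0961) or 3 (0.0617), and with no mean-variance trend (0.0560). The call of Efna1 was lost most often of the 6, in 8 of 18 alternatives. It was lost without any single library other than oral tissue library 2, with adjusted p-values from 0.0738 to 0.147. Leaving out both libraries of litter 1 or of litter 3 also lost Unc5b, Ephb6, Ntn5 and Efna1 (adjusted p from 0.0612 to 0.291), and leaving out those of litter 2 lost Ntn5 and Efna1 (0.0528 and 0.120). The directions of all 6 were kept in the 18 alternatives. Log2 differences ran from 0.26 to 0.34 for Efna1, from 0.27 to 0.33 for Epha2 and from 0.18 to 0.26 for Ephb6. They ran from 0.31 to 0.45 for Ntn5 and from 0.34 to 0.49 for Unc5b. The number of members called fell to 3 without oral tissue library 3, tooth germ library 1 or both libraries of litter 3. In each of these cases 2 were higher and 1 was lower. Without both libraries of litter 2 it was 3, all higher, and without tooth germ library 3 it was 2, both higher. Without both libraries of litter 1 it was 2, with 1 higher and 1 lower.

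**Figure D4:**
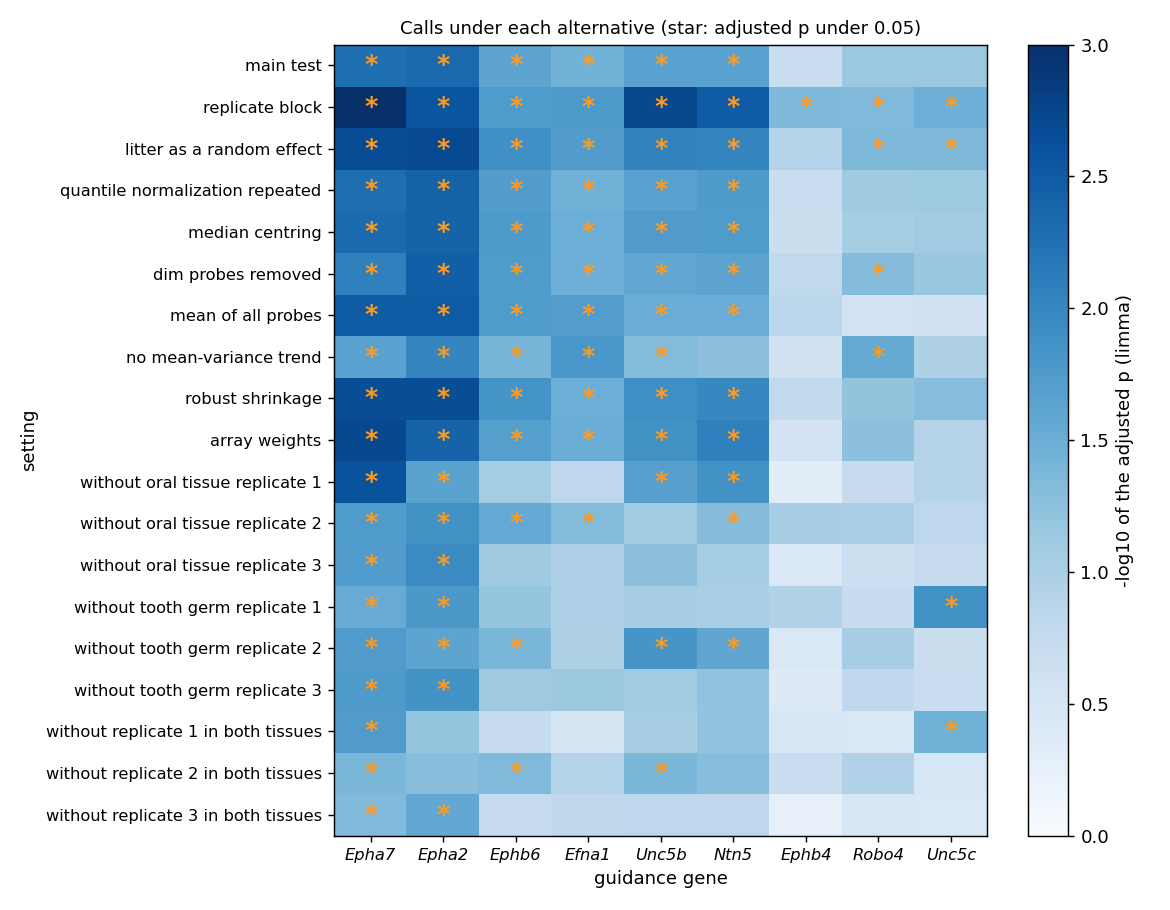
Adjusted p-values (limma, Benjamini-Hochberg) of 9 guidance genes (columns) in the main test and 18 alternatives (rows), shown as -log10 by the depth of blue, with a star where the value is under 0.05. The Epha7 column is starred in every row and the Epha2 column in all but 2, while stars of the other 4 risen genes thin out where libraries are left out, and Ephb4 has a star in 1 row.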

How the data were processed

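RNA of 6 single-colour Illumina bead arrays was analysed. The deposited values are signals on a log2 scale (6.61 to 14.88), made with lumi 2.8.0 per the submitters' processing notes. The background correction, and whether the scale is plain log2 or a variance-stabilising transformation, are not given in the sources used here; either may understate folds of dim genes. The largest gap between sorted columns was 0.000827, as quantile normalization by the authors would give, and no further scaling was applied. Probes were named from the platform annotation: of 45281, 34885 had 1 symbol, 18 several and 10378 none. The brightest probe over the 6 arrays was kept per gene. Titled groups were compared with limma 3.58.1 (R 4.3.3; eBayes with a mean-variance trend, 4 residual degrees of freedom), two-sided, with Benjamini-Hochberg adjustment over 19057 genes. The code was tested on simulated data.

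The descriptions place same-numbered libraries in the same litter. Deviations from group means over 12150 genes correlated at 0.389, 0.227 and 0.258 within the numbers and between -0.251 and -0.0749 across them, so the numbers pair the libraries. Litter as a block was an alternative, as fixed for this comparison. The main test and the fits with libraries left out did not use the pairing. Libraries are biological replicates per the labels. Members and lists were chosen with earlier results of these data known. All members may be named; of the partner lists, up to 3 called genes per direction, or the 2 with the lowest p in a list without calls, besides which Chn2 and Rgmb were named after their values were seen. Alternatives varied litter, scaling, dim probes, probe choice, variance model, threshold and libraries; an offset for a linear table was not run because the table is logarithmic. Scan dates and slides were not used here. RefSeq promoter sequences are of GRCm38.p6; where several starts are listed, the most upstream was taken.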

Additional observations from a re-analysis of the deposited data

How the results depend on the processing

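With litter as a block (replicate block), 1693 genes (8.88%) were called in all, 736 of them higher, against 1107 and 456. With the block 3 members were lower against 0, where 5.02% of all genes were lower. Of 32 Eph and ephrin partners 3 were called against 0, a share near that of all genes. With litter as a random effect 2 members were lower and 1 Eph partner was called. Removing dim probes gave 1 lower member and 1 Eph partner, dropping the mean-variance trend 1 lower member, and robust shrinkage and array weights 1 Eph partner each. With the mean of all probes 0 Slit and Robo partners were called. At an adjusted p under 0.01, 601 genes (218 higher, 383 lower), 2 members, both higher, and 1 Slit and Robo partner were called; at 0.10, 2 members were lower and 1 Eph partner was called. The block changed no other call of a member. Without tooth germ library 2, 734 genes were called (282 higher). Without both libraries of litter 3 it was 668 (258 higher, 410 lower), and without those of litter 2, 268 were higher. Leaving out 1 library or both of a litter gave from 549 to 1025 genes, from 195 to 368 higher and from 354 to 663 lower, from 2 to 6 members, from 1 to 5 higher and from 0 to 1 lower, from 0 to 1 Eph partners, from 0 to 2 Slit and Robo partners and from 4 to 5 netrin partners. Fewer libraries leave fewer degrees of freedom; for the other settings the cause was not tested. No called member changed sign in any alternative. The number of arrays limits precision, and members near the median signal may have understated differences.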
